A study of Mus musculus with 12 samples.

Results

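The genes described here are 10 regulators of the unfolded protein response (UPR), the program by which cells answer a load of misfolded proteins in the endoplasmic reticulum (ER). They were chosen by name from the 55487 genes of the count table: the stress sensors Atf6, Ern1 and Eif2ak3, the transcription factors Xbp1, Atf4, Atf3, Creb3l1 and Creb3l2, and Ddit3 and Ppp1r15a of the terminal branch. All 10 were detected in every sample and passed the filter on low counts. The cells were primary wild-type mesenchymal stromal cells (MSCs) from the femur marrow of female C57BL/6 mice aged 6 to 8 weeks, expanded in culture and frozen at passage 9 or 10. Control MSCs carry the label Negative and received no agent. The A1 group received 50 μM A1 for 6 h, a variant of the Accum molecule in which cholic acid is linked to a nuclear localization peptide. The A1 + OVA group received 50 μM A1 with 1 mg/ml ovalbumin (OVA), a model antigen from egg white, also for 6 h. Each group had 4 samples, none of the samples analysed here received OVA alone, and the label of the OVA medium also names insulin, without a dose. The labels do not say whether the 4 samples of a group came from separate animals or cultures, so the p-values measure the spread between these samples, which may be technical.

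In the ER, the UPR is run by membrane sensors that read the state of protein folding. ATF6 travels to the Golgi, where proteases release its cytosolic part as a transcription factor for chaperone genes. IRE1 (gene Ern1) splices the Xbp1 mRNA so that it encodes an active factor, while PERK (gene Eif2ak3) phosphorylates the translation factor eIF2α, which slows protein synthesis and favors translation of the Atf4 mRNA. Under lasting stress ATF4 induces CHOP (gene Ddit3), a factor known for its part in cell death, and GADD34 (gene Ppp1r15a), which brings a phosphatase to eIF2α. Several of these steps act on protein or on splicing, and gene counts measure neither: the values below are mRNA levels only.

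The libraries held between 13702348 and 16881995 counts on genes, with 15644991 to 16881995 in control, 13702348 to 14347870 in A1 and 14359973 to 16674294 in A1 + OVA samples. Mitochondrial genes took 3.351% to 3.651% of the counts in control samples, 2.813% to 3.292% in A1 samples and 2.766% to 3.06% in A1 + OVA samples, and the part of this difference in the results was not tested. The summed level of 8 MSC markers was 3916 to 4473 CPM (counts per 1000000, after TMM normalization for library composition) in control, 3977 to 4459 in A1 and 4008 to 4365 in A1 + OVA samples. Most of this sum was Col1a1, and single markers differed between the groups. Cd44 ranged from 168.7 to 183.3 CPM in control, 442.6 to 470.2 in A1 and 385.1 to 422.6 in A1 + OVA samples, Pdgfra from 233.3 to 255.8, 119.8 to 133.4 and 101.2 to 125.7 CPM, and Ly6a from 33.04 to 37.0, 20.69 to 24.73 and 23.57 to 26.16 CPM. The part of these differences in the results was not tested. Thy1 (CD90) had 0 to 17 counts and Nt5e (CD73) 7 to 14 counts per sample, so that the mRNA of both surface markers was near the floor in cells labelled as MSCs. The authors assessed both markers as surface protein by flow cytometry, which mRNA counts do not measure. The 7 macrophage and leukocyte markers summed to 9.404 to 10.46, 11.99 to 14.67 and 10.73 to 13.07 CPM in the same order of groups, with Adgre1 and Itgam at or under 3 counts in every sample. Of these, Cd14 had 7.422 to 7.796, 10.31 to 12.56 and 8.516 to 10.05 CPM, while Ptprc, Cd68, Csf1r and Lyz2 each had under 2 CPM in every sample and overlapped between control and treated samples. The 4 osteoblast markers summed to 0.5642 to 1.052, 2.106 to 2.901 and 1.417 to 1.594 CPM, with Bglap, Sp7 and Ibsp at or under 3 counts in every sample. Nearly all of this sum was Dmp1, with 7 to 36 counts per sample (0.4389 to 0.9281, 2.106 to 2.749 and 1.386 to 1.594 CPM). Endothelial markers summed to less than 1 CPM in every sample, with Cdh5 and Emcn at or under 3 counts. All 5 erythroid markers lay at or under 3 counts in every sample. The 4 adipocyte markers, mostly Fabp4, summed to 62.35 to 69.25, 61.62 to 70.23 and 65.16 to 77.69 CPM in the same order of groups, with Lep at or under 3 counts. Adipoq, with 3 to 45 counts per sample, was lower in every treated sample (1.003 to 2.783, 0.5809 to 0.7635 and 0.198 to 0.9497 CPM). Plin1, with 1 to 11 counts, had 0.1774 to 0.6896, 0.07635 to 0.1527 and 0.1233 to 0.3301 CPM. The part of these differences in the results was not tested either. In bulk RNA of this kind, fewer cells of a type and less RNA per cell cannot be told apart.

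With A1, 7 of the 10 regulators rose, 0 fell and 3 did not pass the test (edgeR's quasi-likelihood test, Benjamini-Hochberg adjusted p under 0.05). Over all 11314 tested genes, 62.7% were called in this comparison, 31.7% of them as higher and 31.1% as lower, given as shares of all tested genes. With A1 + OVA against control the count was again 7 higher, 0 lower and 3 not called, where 57.6% of all genes were called, 29.7% higher and 27.9% lower. Scaling by total counts alone, without TMM factors, changed the split over all genes from 3582 higher and 3516 lower to 2681 and 4493 with A1, and from 3358 and 3160 to 2616 and 4097 with A1 + OVA. The regulators that rose with both treatments were Atf6, Creb3l1, Ern1, Xbp1, Atf4, Atf3 and Ppp1r15a, while Eif2ak3, Creb3l2 and Ddit3 were not called in either. Both comparisons use the same 4 control samples. For 6 of 10 regulators the treated samples did not overlap the control samples, with either treatment, against 54.4% of all genes with A1 and 49.4% with A1 + OVA. Of the 10 regulators, 4 were called and also changed by 0.5 or more on the log2 scale with each treatment (Atf6, Atf3, Creb3l1 and Ppp1r15a), against 21% of all genes with A1 and 17.7% with A1 + OVA.

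**Figure D1:**
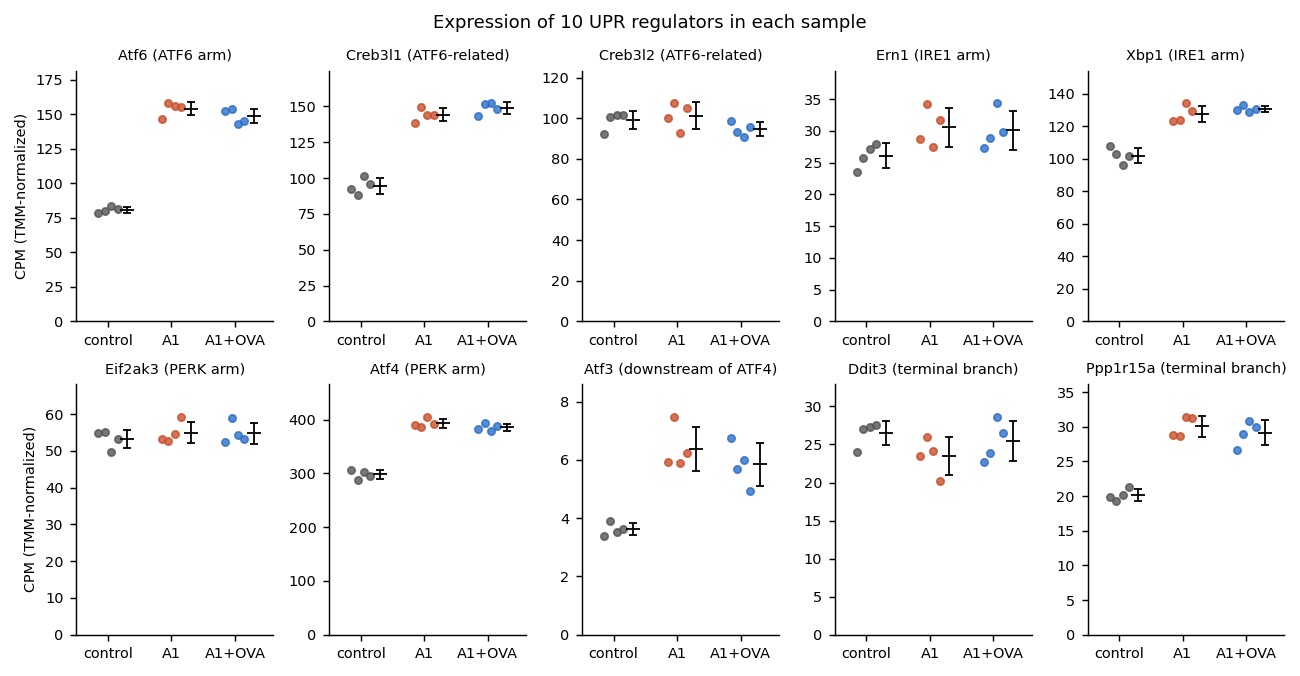
Normalized expression of the 10 regulators in the 12 samples, on linear axes in CPM that start at 0; points are samples, and the bar beside each group is its mean with the SD (n = 4). Atf6 stands at 78.72 to 83.47 CPM in control and 146.9 to 157.9 CPM in A1 samples, while the groups overlap for Eif2ak3, Creb3l2 and Ddit3.

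In the ATF6 arm, the sensor gene itself had the largest change of the 10 regulators. Atf6 lies on the minus strand at chr1:170704674-170867771 of GRCm38. Its normalized level in the control samples was 78.72, 80.15, 83.47 and 81.13 CPM, a mean of 80.87 ± 2.0 (SD, n = 4). The A1 samples had 146.9, 157.9, 155.7 and 154.9 CPM (153.9 ± 4.78), and the A1 + OVA samples 152.5, 153.8, 143.2 and 145.4 CPM (148.7 ± 5.208). Every treated sample was therefore well above every control sample, and the treatments overlapped each other. The log2 fold change was 0.93 ± 0.0389 (SE) with A1 (1.902-fold, edgeR adjusted p = 1.07e-14) and 0.88 with A1 + OVA (1.839-fold, edgeR adjusted p = 2.8e-14). Of all tested genes, 92.3% had a smaller absolute change with A1.

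The related factor Creb3l1 (OASIS), which like ATF6 is cut in the Golgi and is known for its role in collagen secretion by osteoblasts and fibroblasts, also rose. It lies on the minus strand at chr2:91982328-92024502. Control samples had 92.71, 88.43, 101.5 and 95.56 CPM (94.56 ± 5.502), A1 samples 138.3, 149.7, 144.1 and 144.1 CPM (144.1 ± 4.644), and A1 + OVA samples 143.1, 151.8, 152.1 and 148.4 CPM (148.9 ± 4.173). Control and treated samples did not overlap. Its log2 fold change was 0.61 ± 0.0428 with A1 (edgeR adjusted p = 6.09e-11) and 0.66 with A1 + OVA (edgeR adjusted p = 1.71e-11).

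Its paralog Creb3l2 (BBF2H7), which drives genes of the secretory pathway in cartilage, did not pass the test. The gene lies on the minus strand at chr6:37327255-37442146. Control samples had 92.34, 100.4, 101.5 and 101.8 CPM (99.0 ± 4.481), A1 samples 100.1, 107.3, 92.6 and 105.1 CPM (101.3 ± 6.546), and A1 + OVA samples 98.79, 93.14, 90.64 and 95.46 CPM (94.51 ± 3.467). All groups overlapped. The log2 difference from control was 0.03 with A1 (95% interval -0.0656 to 0.1318, edgeR adjusted p = 0.563) and -0.07 with A1 + OVA (-0.1658 to 0.0309, edgeR adjusted p = 0.232), so that a change of the size seen for Creb3l1 lies outside both intervals. Under scaling by total counts alone, the sign with A1 turned (-0.05), and Creb3l2 was lower with A1 + OVA (log2 fold change -0.13, edgeR adjusted p = 0.0171).

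In the IRE1 arm, both the sensor and its substrate rose, by less than Atf6. Ern1, the kinase and endoribonuclease, lies on the minus strand at chr11:106394650-106487852. Its control samples had 23.52, 25.77, 27.16 and 27.96 CPM (26.1 ± 1.949), its A1 samples 28.71, 34.28, 27.4 and 31.73 CPM (30.53 ± 3.087), and its A1 + OVA samples 27.25, 28.94, 34.33 and 29.77 CPM (30.07 ± 3.025). The highest control samples overlapped the lowest treated samples in both comparisons. The log2 fold change was 0.23 ± 0.0789 with A1 (edgeR adjusted p = 0.0169) and 0.21 with A1 + OVA (edgeR adjusted p = 0.0289). Among the 7 calls, this was the only one lost under another scaling or filter or without a sample. It was lost under scaling by total counts alone, with a log2 fold change of 0.15 with A1 (edgeR adjusted p = 0.117) and 0.14 with A1 + OVA (edgeR adjusted p = 0.133). It was also lost with A1 when control replicate 1, A1 replicate 2 or A1 replicate 4 was left out (log2 fold changes 0.18, 0.17 and 0.20), and with A1 + OVA when control replicate 1, control replicate 2 or A1 + OVA replicate 3 was left out (0.16, 0.20 and 0.14).

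Xbp1, whose mRNA IRE1 splices, lies on the plus strand at chr11:5520659-5525893. Control samples had 107.6, 102.7, 95.91 and 101.9 CPM (102.0 ± 4.8), A1 samples 123.5, 124.1, 134.1 and 129.4 CPM (127.8 ± 4.976), and A1 + OVA samples 130.2, 133, 128.9 and 130.5 CPM (130.7 ± 1.684). No treated sample overlapped a control sample. Its log2 fold change was 0.32 ± 0.0405 with A1 (edgeR adjusted p = 4.82e-07) and 0.36 with A1 + OVA (edgeR adjusted p = 1.21e-07). The counts sum the spliced and unspliced forms, so the share of active Xbp1 mRNA was not measured.

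In the PERK arm, the transcription factor rose and the sensor did not pass the test. Eif2ak3 lies on the plus strand at chr6:70844515-70905245, and 485 of its 6026 exon bases overlap the opposite-strand gene Gm43292, which a strand-specific count keeps apart. Its control samples had 54.83, 55.21, 49.69 and 53.3 CPM (53.26 ± 2.518), its A1 samples 53.37, 52.76, 54.58 and 59.33 CPM (55.01 ± 2.977), and its A1 + OVA samples 52.47, 58.95, 54.4 and 53.25 CPM (54.77 ± 2.898). The groups overlapped throughout. The log2 difference was 0.05 with A1 (95% interval -0.0623 to 0.1559, edgeR adjusted p = 0.452) and 0.04 with A1 + OVA (-0.067 to 0.1486, edgeR adjusted p = 0.521), and its sign turned under scaling by total counts alone (-0.03 and -0.02).

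Atf4, the factor that PERK signaling raises mainly at the level of translation, lies on the plus strand at chr15:80255184-80257541. Control samples had 306.8, 288.4, 303.3 and 295.4 CPM (298.5 ± 8.262), A1 samples 389.8, 385.9, 405.3 and 391.8 CPM (393.2 ± 8.428), and A1 + OVA samples 383.2, 392.8, 377.9 and 387.4 CPM (385.3 ± 6.343). The treated samples lay above every control sample, with little spread in any group. Its log2 fold change was 0.40 ± 0.0346 with A1 (1.317-fold, edgeR adjusted p = 1.97e-09) and 0.37 with A1 + OVA (edgeR adjusted p = 7.33e-09).

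Atf3, a stress-induced factor known as a target of ATF4, was the least abundant of the regulators. It lies on the minus strand at chr1:191170296-191218039. Control samples had 3.404, 3.901, 3.527 and 3.637 CPM (3.617 ± 0.2119), from 55 to 66 counts each. The A1 samples had 5.93, 7.482, 5.878 and 6.245 CPM (6.384 ± 0.75), and the A1 + OVA samples 6.74, 5.699, 6.007 and 4.93 CPM (5.844 ± 0.7498). All treated samples were above all control samples. The log2 fold change of 0.82 ± 0.1253 with A1 (edgeR adjusted p = 8.33e-06) and of 0.68 with A1 + OVA (edgeR adjusted p = 7.58e-05) had the largest SE of the 10 genes.

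The genes of the terminal branch did not move alike. Ppp1r15a lies on the minus strand at chr7:45522916-45526268 and had 19.8, 19.33, 20.11 and 21.32 CPM in control samples (20.14 ± 0.8488). It had 28.78, 28.63, 31.45 and 31.3 CPM in A1 samples (30.04 ± 1.543) and 26.67, 29, 30.83 and 29.95 CPM in A1 + OVA samples (29.11 ± 1.791). No treated sample overlapped a control sample. The log2 fold change was 0.58 ± 0.0623 with A1 (1.492-fold, edgeR adjusted p = 5.79e-08) and 0.53 with A1 + OVA (1.448-fold, edgeR adjusted p = 1.83e-07).

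Ddit3, the gene of CHOP, lies on the plus strand at chr10:127290774-127296288. Its control samples had 24.07, 27.01, 27.23 and 27.59 CPM (26.48 ± 1.618), its A1 samples 23.5, 26.03, 24.2 and 20.19 CPM (23.48 ± 2.442), and its A1 + OVA samples 22.69, 23.93, 28.65 and 26.56 CPM (25.46 ± 2.672). The groups overlapped, with the lowest value in A1 and the highest in A1 + OVA. The log2 difference from control was -0.17 ± 0.0802 with A1 (95% interval -0.3415 to -0.0077, unadjusted p = 0.0411, edgeR adjusted p = 0.0638) and -0.05 with A1 + OVA (-0.2168 to 0.1075, edgeR adjusted p = 0.57). The increase measured for Ppp1r15a lies outside both intervals. With A1, Ddit3 passed the test as lower under several other settings: upper-quartile normalization, scaling by total counts alone (log2 fold change -0.25, edgeR adjusted p = 0.00972), no filter on low counts, only the compared groups in the fit, and without control replicate 1 (-0.22), A1 replicate 2 (-0.23) or A1 + OVA replicate 3 (-0.17). The annotation holds another entry with the symbol Ddit3, whose 105 exon bases all lie inside the gene on the same strand. That entry had 0 counts in every sample, and reads in those bases, 6.13% of the exon length, may have been left uncounted. A further 68 exon bases overlap Mars on the opposite strand.

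**Figure D2:**
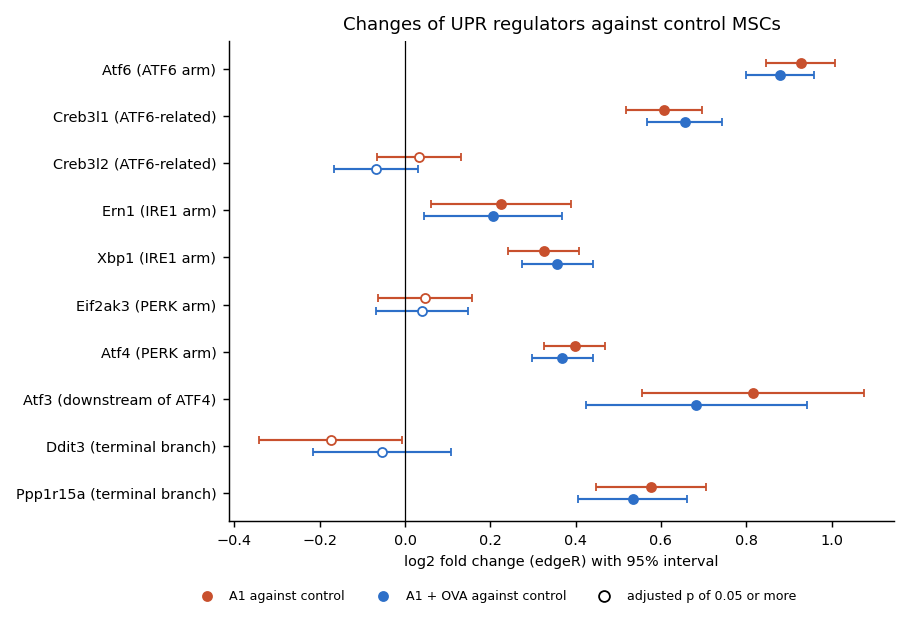
Log2 fold changes of the 10 regulators against control MSCs from edgeR with 95% intervals, for A1 and A1 + OVA (4 samples each, with the same 4 controls); filled points have an adjusted p under 0.05. Atf6 lies farthest to the right. The intervals of Creb3l2 and Eif2ak3 span 0, as does that of Ddit3 with A1 + OVA. The interval of Ddit3 with A1 lies below 0 (-0.3415 to -0.0077), with an adjusted p of 0.0638 from edgeR.

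The arms and the terminal branch were then compared inside each sample, as log2 ratios of CPM between a pair of regulators, in which the scaling of the library cancels. In total 12 differences were tested (4 ratios in 3 comparisons) with a two-sided exact permutation test of 4 against 4 samples, for which 0.0286 is the smallest p that can be reached, or 0.049 after Benjamini-Hochberg adjustment here. The ratio of Ddit3 to Atf4 was -3.49 ± 0.12 in control, -4.064 ± 0.159 in A1 and -3.919 ± 0.163 in A1 + OVA samples (SD, n = 4). CHOP mRNA was thus lower relative to the mRNA of its upstream factor by 0.57 ± 0.099 (SE) with A1 (exact permutation p = 0.0286, adjusted p = 0.049) and by 0.43 ± 0.101 with A1 + OVA (exact permutation p = 0.0286, adjusted p = 0.049). Every treated sample was below every control sample. These differences combine the rise of Atf4 and the values of Ddit3.

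Ppp1r15a moved the other way against Atf4. Its log2 ratio to Atf4 was -3.881 ± 0.069 in control, -3.706 ± 0.054 in A1 and -3.722 ± 0.097 in A1 + OVA samples. The difference from control was 0.18 ± 0.044 with A1, without overlap (exact permutation p = 0.0286, adjusted p = 0.049). With A1 + OVA it was 0.16 ± 0.059, and A1 + OVA replicate 1 overlapped the control samples (exact permutation p = 0.0571, adjusted p = 0.0762).

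Between the arms, Atf6 rose more than both transcription factors. The log2 ratio of Xbp1 to Atf6 was 0.334 ± 0.103 in control, -0.268 ± 0.056 in A1 and -0.186 ± 0.038 in A1 + OVA samples, and it fell by 0.60 ± 0.059 with A1 and by 0.52 ± 0.055 with A1 + OVA (exact permutation p = 0.0286 and adjusted p = 0.049 for both). The log2 ratio of Atf4 to Atf6 was 1.882 ± 0.053, 1.353 ± 0.051 and 1.373 ± 0.039 in the same order of groups. It fell by 0.53 ± 0.037 with A1 and by 0.51 ± 0.033 with A1 + OVA (exact permutation p = 0.0286 and adjusted p = 0.049 for both). Treated and control samples did not overlap in any of these 4 differences.

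**Figure D3:**
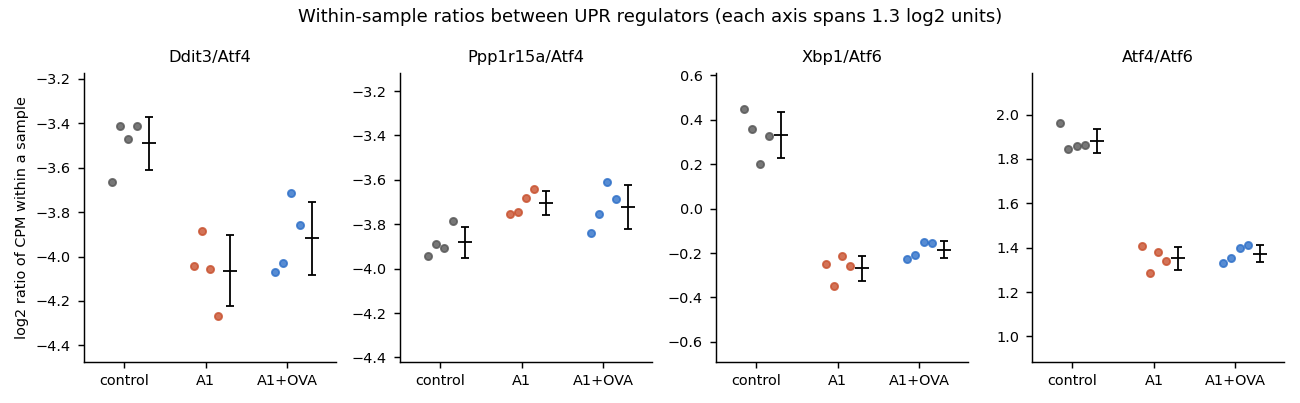
Log2 ratios of CPM within each sample for 4 pairs of regulators; points are samples, the bar is the mean with the SD (n = 4), and every axis spans 1.3 log2 units. Ddit3/Atf4, Xbp1/Atf6 and Atf4/Atf6 were lower in all treated samples than in any control sample, and Ppp1r15a/Atf4 was higher in all A1 samples.

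To ask what OVA added, A1 + OVA was compared with A1. The label of the OVA medium also names insulin, so a part of insulin, if it was added, cannot be told apart from that of OVA. None of the 10 regulators passed the test: edgeR called 0 of 10 and DESeq2 called 0 of 10, and 1 of 10 had an unadjusted edgeR p under 0.05, where 12.9% of all genes were called, 6.05% as higher and 6.81% as lower with OVA, and 1.2% also changed by 0.5 or more on the log2 scale. Scaling by total counts alone changed the split over all genes from 685 higher and 770 lower to 839 and 616. No regulator had groups without overlap, against 18.1% of all genes. For Atf6 the log2 difference was -0.05 (95% interval -0.127 to 0.0292), for Atf4 -0.03 (-0.1007 to 0.0426), and for Xbp1 0.03 (-0.0511 to 0.1155). For the genes of the terminal branch it was 0.12 for Ddit3 (-0.049 to 0.2889) and -0.04 for Ppp1r15a (-0.1683 to 0.0812). Creb3l2 was the gene with the unadjusted p under 0.05 (log2 difference -0.10, 95% interval -0.2001 to -0.0011, unadjusted p = 0.0477, edgeR adjusted p = 0.177). The intervals leave room for differences of the widths given, and OVA without A1 was not analysed here. For the log2 ratios, A1 + OVA and A1 samples differed by 0.15 ± 0.114 for Ddit3/Atf4 (exact permutation p = 0.229, adjusted p = 0.274), by 0.08 ± 0.034 for Xbp1/Atf6 (exact permutation p = 0.0571, adjusted p = 0.0762), by -0.02 ± 0.055 for Ppp1r15a/Atf4 (exact permutation p = 0.743) and by 0.02 ± 0.032 for Atf4/Atf6 (exact permutation p = 0.543, adjusted p = 0.592).

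The levels of different genes were compared per kilobase of merged exons. In control MSCs the order of mean levels was Atf4 with 126.6 CPM per kb, Creb3l1 with 36.33, Xbp1 with 31.41, Ddit3 with 15.46, Creb3l2 with 13.59, Eif2ak3 with 8.838, Atf6 with 8.761, Ppp1r15a with 6.857, Ern1 with 3.194 and Atf3 with 1.679 CPM per kb. Only Eif2ak3 and Atf6 overlapped among neighbours in this order. Ern1 was the lowest of the sensor genes in control cells. With A1, Atf6 reached 16.67 CPM per kb and moved up to the fourth place, above Creb3l2 (13.91) and Ddit3 (13.71), which overlapped, while Ppp1r15a (10.23) and Eif2ak3 (9.128) overlapped, as did Ern1 (3.736) and Atf3 (2.964). With A1 + OVA, Atf6 had 16.11 CPM per kb and overlapped Ddit3 (14.86), which overlapped Creb3l2 (12.98), and Ppp1r15a (9.912) overlapped Eif2ak3 (9.088). Atf4, Creb3l1 and Xbp1 kept the top places in all groups, with Atf4 at 166.7 CPM per kb in A1 and 163.4 in A1 + OVA samples. The order depends on the length used: per kilobase of the longest transcript, Xbp1 stood above Creb3l1 in control (47.92 and 36.33 CPM per kb), and Ddit3 stayed above Atf6 in A1 samples (24.23 and 21.23 CPM per kb, overlapping) and in A1 + OVA samples (26.27 and 20.53 CPM per kb, without overlap).

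**Figure D4:**
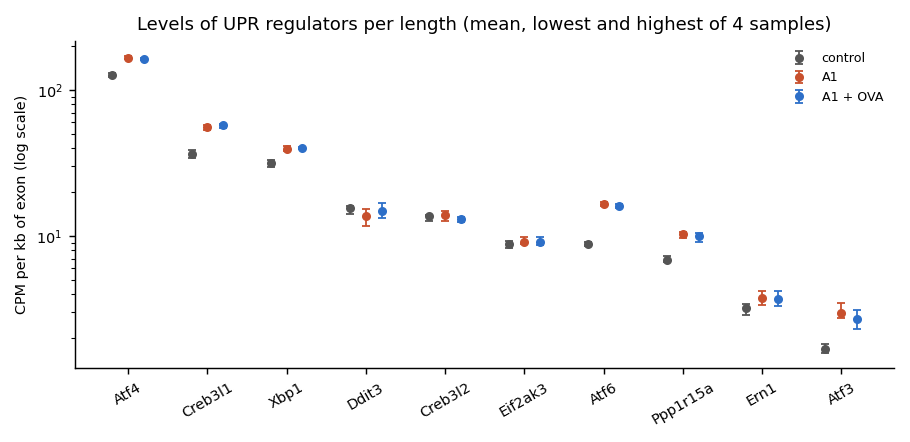
Levels of the 10 regulators in CPM per kilobase of merged exons on a log axis, ordered by the control level; points are means and bars run from the lowest to the highest of 4 samples. Atf6 lies level with Eif2ak3 in control (8.761 and 8.838) and above it in A1 (16.67 and 9.128).

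The other genes of the pathway were taken from 9 lists of 93 genes in all, of which 87 were tested. With A1, 48 of the 87 rose and 15 fell, with a median log2 fold change of 0.122, beside -0.002 over all tested genes. These are 55.2% and 17.2% of the list genes, beside 31.7% and 31.1% of all genes, and scaling by total counts alone gave 38 higher and 19 lower. With A1 + OVA against control, 48 rose and 17 fell (median 0.139, beside 0.004 over all genes), or 55.2% and 19.5%, beside 29.7% and 27.9% of all genes, and scaling by total counts alone gave 41 higher and 19 lower.

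Among the targets ascribed to ATF6, which are chaperones and folding factors of the ER, 10 of 11 rose and 0 fell with A1 (median log2 fold change 0.392), and the same counts were found with A1 + OVA (median 0.261). The shares over all tested genes were 31.7% higher and 31.1% lower with A1, and 29.7% and 27.9% with A1 + OVA. Over all settings, including those with a sample left out, 7 to 10 of these targets rose with A1 and 0 to 1 fell. For A1 + OVA, 8 to 10 rose and 0 fell. Manf, a secreted ER stress protein, went from 154.1 to 266.3 CPM (log2 fold change 0.79, edgeR adjusted p = 5.08e-13). Creld2, another secreted ER stress protein, went from 53.97 to 92.31 CPM (0.77), and the chaperone Hyou1 from 182.9 to 289.1 CPM (0.66). Hspa5, the gene of the main ER chaperone BiP, went from 1636 to 2448 CPM (log2 fold change 0.58, edgeR adjusted p = 1.02e-10). The gene of the list that did not pass, named after its values were seen, was Sel1l (log2 fold change -0.04, edgeR adjusted p = 0.349). In the list of ATF6 relatives and Golgi proteases, 3 of 5 tested genes rose and 1 fell with A1 as with A1 + OVA, and Creb3l3 and Creb3l4 were not tested. Over all genes, 62.7% were called with A1 and 57.6% with A1 + OVA, and 5 genes are too few to set the list apart. The proteases that cut ATF6 went in opposite directions: Mbtps2 (site-2 protease) rose by 0.23 on the log2 scale and Mbtps1 (site-1 protease) fell by 0.27 (edgeR adjusted p = 0.000177 and 7.17e-07). Creb3 rose by 0.20, and Pdia5, a disulfide isomerase that acts on ATF6, by 0.36.

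Of the XBP1 targets, which serve protein entry, folding and degradation in the ER, 9 of 13 rose and 0 fell with A1 (median log2 fold change 0.29), and 7 of 13 rose and 0 fell with A1 + OVA (median 0.164). Among all tested genes, 31.7% were higher and 31.1% lower with A1, and 29.7% and 27.9% with A1 + OVA. Regardless of direction, 62.7% and 57.6% of all genes were called. Sec61a1, the core of the protein translocation channel, went from 318.1 to 507.8 CPM (0.67, edgeR adjusted p = 1.07e-12). Dnajb9, an ER co-chaperone, rose by 0.40, Sec61b, another subunit of the channel, by 0.36 and Sec24d, a coat protein of ER export vesicles, by 0.36 on the log2 scale. Among 5 tested IRE1 partners 1 rose and 2 fell with each treatment, near the share of all genes called (62.7% with A1 and 57.6% with A1 + OVA), and Ern2 was not tested. Map3k5 (ASK1), a kinase of the IRE1 stress branch, fell by 0.47 on the log2 scale (edgeR adjusted p = 0.00211), Zbtb8os fell by 0.28, and Rtcb, the ligase that joins the Xbp1 exons, rose by 0.10 (edgeR adjusted p = 0.0215). Of 7 transcripts reported as substrates of IRE1-dependent decay, 1 rose and 3 fell with A1 (median -0.008) and 1 rose and 4 fell with A1 + OVA (median -0.135), where 31.1% and 27.9% of all genes were lower. On so few transcripts these counts do not set the list apart from all genes. Pmp22, a myelin and membrane protein, went from 105.8 to 60.58 CPM (-0.80), Col6a1, a collagen, from 2230 to 1499 CPM (-0.57) and Scara3 from 8.271 to 6.334 CPM (-0.39), while Sparc, a matrix protein, rose by 0.12 on the log2 scale.

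For the ATF4 targets, which mostly serve amino acid uptake and synthesis, 16 of 24 tested genes rose and 3 fell with A1 (median log2 fold change 0.313), and 17 rose and 3 fell with A1 + OVA (median 0.305). Beside these counts, 31.7% of all tested genes were higher and 31.1% lower with A1. The shares with A1 + OVA were 29.7% and 27.9%. Fgf21, Stc2 and Vldlr were not tested. Chac1, a glutathione-degrading enzyme, went from 7.692 to 20.24 CPM (1.40, edgeR adjusted p = 1.02e-12). Slc7a11, the cystine transporter, went from 4.73 to 11.41 CPM (1.27), Nupr1, a stress-induced nuclear protein, from 25.65 to 51.25 CPM (1.00) and Slc7a1, a transporter of basic amino acids, from 79.76 to 146.3 CPM (0.87). In the opposite direction, Pck2, the mitochondrial enzyme that makes phosphoenolpyruvate, fell by 0.41 and the factor Atf5 by 0.28 on the log2 scale (edgeR adjusted p = 2.03e-08 and 2.27e-05). Among eIF2α kinases, the phosphatase and the exchange factor, 6 of 13 rose and 2 fell with A1 (median 0.079), and 6 rose and 4 fell with A1 + OVA (median 0.022). Over all genes, 62.7% were called with A1 and 57.6% with A1 + OVA. On so few genes these counts do not set the list apart from all genes. The genes of this list that rose most were subunits of the exchange factor and of eIF2 itself: Eif2b3 by 0.51, Eif2s1 (eIF2α) by 0.47, Eif2b2 by 0.46 and Eif2b1 by 0.38 on the log2 scale. Ppp1r15b, the constitutive counterpart of Ppp1r15a, went the other way, from 303.1 to 246.6 CPM (-0.30, edgeR adjusted p = 9.42e-07), and Eif2ak2 (PKR), another eIF2α kinase, fell by 0.30. Not all subunits of the exchange factor rose. Eif2b4 and Eif2b5, chosen after their values were seen, did not pass with A1 (-0.01 and 0.08, edgeR adjusted p = 0.895 and 0.0883).

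Of 7 genes listed as CHOP targets, 2 rose and 3 fell with A1 (median log2 fold change -0.164), and 3 rose and 2 fell with A1 + OVA (median -0.148). Over all genes, 31.7% were higher and 31.1% lower with A1, and 29.7% and 27.9% with A1 + OVA. On 7 genes these counts do not set the list apart from all genes. Bcl2l11 (BIM), a promoter of apoptosis, went from 20.06 to 11.93 CPM (-0.75, edgeR adjusted p = 4.79e-07). Gadd45a, a growth arrest gene, fell by 0.38 and Tnfrsf10b, the death receptor DR5, by 0.16 on the log2 scale. Ero1l, the ER oxidase, rose by 0.39, and Bcl2, an inhibitor of apoptosis that CHOP is known to repress, rose by 0.16 (edgeR adjusted p = 7.14e-08 and 0.0273). Of 5 genes ascribed to CREB3L1 and CREB3L2, 2 rose and 1 fell with both treatments (median 0.069 with A1 and -0.016 with A1 + OVA). That is near the share of all genes called, 62.7% with A1 and 57.6% with A1 + OVA. The genes called in this list were Sec24d and Sec23b, coat proteins of ER export (0.36 and 0.34), and the collagen gene Col1a2, which fell by 0.23 on the log2 scale.

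Between A1 + OVA and A1, 5 of the 87 list genes were higher and 6 lower with OVA, 11 in all or 12.6%, about the 12.9% called over all genes, so that the count shows nothing particular to the lists. Scaling by total counts alone gave 9 higher and 3 lower. The count of 11 depended on single libraries, and was 4 without A1 + OVA replicate 3, 5 without A1 + OVA replicate 4, 6 without A1 replicate 1, 3 or 4, and 7 without A1 replicate 2. Sec61a1 was lower by 0.19 on the log2 scale with OVA (edgeR adjusted p = 0.00159), Mbtps1 lower by 0.12 (edgeR adjusted p = 0.0362) and Pck2 higher by 0.18 (edgeR adjusted p = 0.00754). Chosen after their values were seen, Dnajc3, an inhibitor of eIF2α kinases and ER co-chaperone, was lower by 0.23 (edgeR adjusted p = 0.000656), and Trib3, a target of ATF4 and CHOP, was higher by 0.34 (edgeR adjusted p = 0.0301). Against control, Trib3 had a log2 difference of -0.02 with A1 (edgeR adjusted p = 0.886) and rose by 0.32 with A1 + OVA (edgeR adjusted p = 0.00768).

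**Figure D5:**
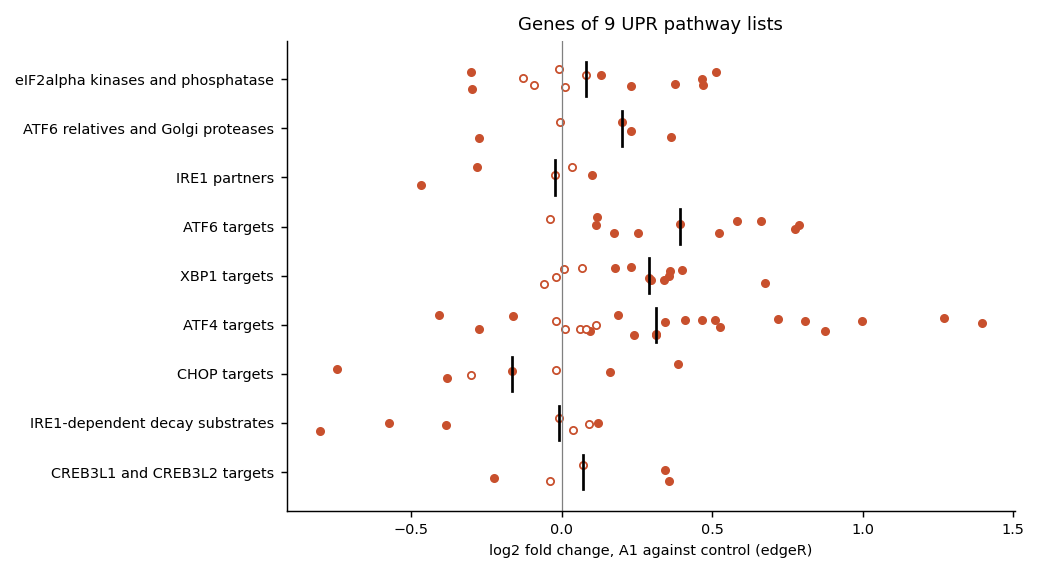
Log2 fold changes with A1 against control from edgeR for each tested gene of the 9 lists; each point is a gene, filled when its adjusted p is under 0.05, and the black line is the median of the list. The ATF6 targets (median 0.392), XBP1 targets (0.29) and ATF4 targets (0.313) lie mostly to the right of 0, and the CHOP targets (-0.164) lie on both sides.

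The promoters of the regulators were searched for the DNA elements that UPR factors bind, since members of the response drive each other's genes. Windows from 250 bases before to 50 bases after the RefSeq start (GRCm38.p6) were at hand for 8 of the 10 regulators, without Atf6 and Creb3l1. Both strands were searched for the cAMP response element TGACGTCA (in 1.79% of the 32851 windows of that length), the UPR element TGACGTGG (0.676%), the composite element of ATF4 and C/EBP factors TGATGCAA (0.895%), the ER stress elements ERSE (0.119%) and ERSE-II (0.0365%), and TTACGTCA (0.499%), which was added after the Atf3 window had been read. The windows of Atf4, Xbp1, Ern1, Eif2ak3 and Ddit3 held none of these. The windows with a match are shown 5′ to 3′ on the strand of the gene, with the matched bases in capitals, because they belong to Atf3 and Ppp1r15a, which rose, and to Creb3l2, which was not called. The stretches are chr1:191183334-191183483 for Atf3, chr6:37442297-37442384 for Creb3l2 and chr7:45526269-45526320 for Ppp1r15a, all on the minus strand.
Atf3: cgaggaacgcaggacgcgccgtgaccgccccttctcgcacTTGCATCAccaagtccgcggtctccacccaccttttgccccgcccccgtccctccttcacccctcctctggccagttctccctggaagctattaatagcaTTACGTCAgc
Creb3l2: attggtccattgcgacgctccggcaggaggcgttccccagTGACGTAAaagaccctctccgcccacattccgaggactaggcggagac
Ppp1r15a: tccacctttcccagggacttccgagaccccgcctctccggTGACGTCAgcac
In Atf3, the composite element lies on the opposite strand from -110 to -103 and TTACGTCA from -10 to -3, counted from the start, which for this RefSeq transcript falls inside the longer gene of the annotation used for the counts. In Creb3l2, the reverse complement of TTACGTCA lies from -196 to -189, and in Ppp1r15a the cAMP response element lies from -12 to -5. The matches did not overlap each other. A match describes the letters of the window only.

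Finally, the genes whose log2 CPM followed a regulator most closely over the 12 samples were looked up, as a description, since the samples share the 3 groups and any gene with a like group difference scores high. For Atf6 they were Hmga2, Msn and Fgf2, each with a Pearson correlation of 0.996, and 1472 genes lay above 0.9. For Atf4 they were Arpc5, Rcc1 and Tagln2 (0.992 each), with 1455 genes above 0.9. Xbp1 was followed by Cct4 (0.982), Rab3ip and Nup37 (0.981 each), with 1082 genes above 0.9. Ppp1r15a was followed by Phlda1 and Nop2 (0.989 each) and C77080 (0.986), with 1218 genes above 0.9. For Ddit3 the closest were Sh2b1 (0.892), Ilkap (0.884) and Napb (0.876), with 0 genes above 0.9. Ddit3 was the only regulator looked up here that was not called against control. Eif2ak3 and Creb3l2, also not called, were not looked up, so this is not shown to be particular to Ddit3.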

How the data were processed

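RNA of 12 MSC samples in 3 groups was sequenced. The authors made strand-specific poly(A) libraries, aligned reads with STAR 2.7 to GRCm38 with Ensembl genes and summarized them with featureCounts 2.0. The deposited values are raw counts for 55487 genes, not normalized. Symbols and coordinates came from GENCODE M21, which holds 99.53% of the genes, and promoter sequences from RefSeq. Protein-coding genes passing filterByExpr (11314) were scaled by TMM factors. A single edgeR fit of all groups (version 4.0.16, under R 4.3.3) gave quasi-likelihood tests, with Benjamini-Hochberg adjustment over all tested genes and a call at an adjusted p under 0.05. Levels are TMM-normalized CPM, and log2 CPM used a prior count of 2. Within-sample ratios were compared by exact permutation tests (scipy 1.17.1). The scripts were tested on simulated data. The 13702348 to 16881995 counts per sample set the precision, as does the number of 4 samples per group.

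The regulators and the pathway lists were chosen with earlier results of these data known. From each list the text names up to 4 genes with the largest absolute log2 fold change with A1 among those called whose average log2 CPM was 1 or more, up to 2 called against the main direction, and others where stated. Alternatives were DESeq2 1.42.0, other scaling, filters and gene sets, only the compared groups, a replicate block, and each sample left out. The numbers at the end of the column names follow the groups in order; what they mark is not given in the sources used here. One marker list is not reported here.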

Additional observations from a re-analysis of the deposited data

Results flagged for a closer look

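In 42 sets of 4 samples (each regulator and each ratio in each group), the sample farthest from the others was compared with Dixon's 95% critical value, which chance passes in about 1 set in 20. It was passed in 3 sets, all by control replicate 1. Ddit3 had 24.07 CPM in this sample, beside 27.01 to 27.59 CPM in the other control samples. Creb3l2 had 92.34 CPM, beside 100.4 to 101.8 CPM. The log2 ratio of Atf4 to Atf6 was 1.961, beside 1.845 to 1.862. Without this sample, the log2 difference of Ddit3 with A1 was -0.22 (edgeR adjusted p = 0.0272), so that Ddit3 was then called as lower.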

How the results depend on the processing

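The counts of regulators called were 7, 7 and 0 of 10 with DESeq2 and with a replicate block as in the analysis reported, for A1, A1 + OVA and A1 + OVA against A1. Asking for a change of 0.5 or more on the log2 scale as well left 4 regulators with each treatment, and 18, 17 and 0 genes of the pathway lists in the same order, which follows from the stricter rule. Leaving out 1 sample moved the list genes called between A1 + OVA and A1 to between 4 and 14, from 11. Scaling by total counts alone turned the sign of Eif2ak3 with A1 (-0.0338) and A1 + OVA (-0.0249) and of Creb3l2 with A1 (-0.0473), none of them called. Between A1 + OVA and A1, Eif2ak3 had 0.0007 under upper-quartile normalization and 0.0089 under total counts. Leaving out 1 sample at a time gave -0.0436 to 0.0292 for Eif2ak3 and -0.0896 to 0.0385 for Ern1 in that comparison. Apart from the calls of Ern1, Ddit3 and Creb3l2 described above, every regulator kept its side of the threshold under every alternative, when that extra rule on size is set aside. No ratio changed its call with another prior count. With a sample left out a ratio had too few samples for the permutation test to pass, and the 7 ratio differences called kept their sign. The causes of these shifts were not tested. Samples with the same replicate number had a mean correlation of 0.022 in their deviations from the group means over 12 pairs. The mean was -0.007 over 36 pairs with different numbers, and 4 of 12 samples correlated best with their own number. These values do not show whether samples shared an animal or culture. The numbers were not taken as a pairing because the labels do not say what they mark. The replicate block gave 7134, 6580 and 1488 calls over all genes, beside 7098, 6518 and 1455. Pairing by number cannot change the mean difference of a ratio, so it was no check on the ratios.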
